A study of Mus musculus with 9 samples.

Results

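Selenoprotein genes were followed in D2.OR, a line of mouse mammary tumor cells, kept in 3D culture in different matrices. The members were 9 genes named in advance of this description, of 19938 genes with a value and of 24 mouse selenoprotein genes listed here: the selenium carrier Selenop, the deiodinase Dio2, the glutathione peroxidases Gpx1, Gpx3 and Gpx4, the thioredoxin reductases Txnrd2 and Txnrd3, the methionine sulfoxide reductase Msrb1 and the selenophosphate synthetase Sephs2. Selenop and Dio2 were included because their differences between the matrices were among the largest in these same arrays. All 9 members were measured, and none was removed by a filter. Because the choice was made with these differences known, the values of the members are given as a description, with standard errors and without a test. Tests are given only for genes outside the members. The lists of those genes were also chosen with earlier results of these data known, so their p-values and counts are not free of that choice.

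Expression was measured on 9 Affymetrix arrays, 3 for each of 3 groups, with total RNA of cells from 3D culture in fibrillar collagen I (the form that assembles into fibers), in non-fibrillar collagen I, or, by the array titles alone, in Matrigel, a basement membrane extract. The growth label of the 3 Matrigel arrays repeats the wording for non-fibrillar collagen I, and those arrays have later accession numbers, so a batch and the Matrigel group cannot be told apart. All groups are the same line, with no added agent named in the labels, and nothing in the labels says that replicates were separate cultures, so errors and p-values measure only how far these arrays spread, which may be technical. The matrix comparisons ask how the surroundings of the cells go with their gene expression. Values are log2 units after RMA, a method that corrects background, brings the arrays to one distribution and summarizes the probes of each gene, so a difference of 1 unit is a 2-fold difference. Differences are taken between arrays for 1 gene. Where the place of a gene among all genes is given, it is only a rough guide to its level, because probes differ in affinity. In bulk RNA, fewer cells of a type and less RNA per cell cannot be told apart.

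Selenoproteins carry selenocysteine, an amino acid inserted at a UGA codon that would otherwise end translation, with the help of a stem-loop in the messenger RNA and a dedicated elongation factor. Many are enzymes that use the selenium atom to reduce peroxides, disulfides or oxidized methionine, and the deiodinases use it to remove iodine from thyroid hormones. Selenop holds several selenocysteines and is secreted. It is made mainly in the liver, carries selenium in plasma and is taken up by other tissues through the lipoprotein receptors Lrp8 and Lrp2.

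The promoter of Dio2 and a short stretch of a Selenop promoter are shown because these were the members with differences above 1 log2 unit. RefSeq promoter windows (GRCm38.p6, 250 bases before each start site) were found for all 9 members. Both strands were searched for TGACGTCA, the cAMP response element, for GTAAACA, a forkhead motif, and for TGACNNNGC, the core of the antioxidant response element, 3 motifs picked with the sequences in view. The Dio2 window, chr12:90739039-90739288 on the minus strand, held TGACGTCA 95 to 88 bases before the start, shown in capitals:

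Dio2: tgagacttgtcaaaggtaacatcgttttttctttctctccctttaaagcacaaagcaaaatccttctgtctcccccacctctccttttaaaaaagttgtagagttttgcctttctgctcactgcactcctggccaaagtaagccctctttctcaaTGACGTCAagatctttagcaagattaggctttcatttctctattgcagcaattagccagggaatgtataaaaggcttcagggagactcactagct

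Selenop has 3 listed start sites, and GTAAACA lay 24 to 18 bases before the third. The stretch of 30 bases that holds it, chr15:3270942-3270971 on the plus strand, is shown with the motif again in capitals:

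Selenop: cagagggcgagGTAAACAacagggctataa

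The other 7 members had none of the 3 motifs in any window. Of 32851 windows of this length, 1.55% held TGACGTCA, 3.17% GTAAACA and 10.2% TGACNNNGC. A match describes the letters and is not shown to be a bound site.

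Selenop was higher in Matrigel than in either form of collagen. Its log2 values were 8.65, 8.76 and 8.65 in Matrigel, 6.76, 6.85 and 7.12 in fibrillar collagen, and 6.82, 6.61 and 7.10 in non-fibrillar collagen. All 3 Matrigel arrays stood above all 6 collagen arrays, and the collagen groups overlapped, with replicate 3 the highest in both. The group means were 8.69 ± 0.064 (SD, n = 3) in Matrigel, 6.91 ± 0.19 in fibrillar and 6.84 ± 0.25 in non-fibrillar collagen. Fibrillar collagen was at -1.78 ± 0.12 (limma's standard error, SE) log2 units against Matrigel, 3.43-fold lower, the lowest of the 19938 differences in that comparison. Non-fibrillar collagen was at -1.84 ± 0.12 against Matrigel, 3.59-fold lower and the second lowest of all. These comparisons share the Matrigel arrays, so they are not independent of each other. Between the collagens the difference was 0.064 ± 0.14, with a 95% interval from -0.28 to 0.41, and same-numbered arrays differed by -0.061, 0.23 and 0.020. Leaving out 1 array moved the value against Matrigel between -1.89 and -1.70 for fibrillar and between -1.97 and -1.73 for non-fibrillar collagen. Between the collagens it ran from -0.051 to 0.19, so its sign was not stable.

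Dio2, which turns the prohormone thyroxine into the active hormone triiodothyronine inside cells, differed between all 3 groups. Its log2 values were 9.37, 9.62 and 9.43 in Matrigel, 8.97, 9.06 and 9.17 in fibrillar collagen, and 8.07, 8.31 and 8.19 in non-fibrillar collagen. No 2 groups overlapped: Matrigel was highest, fibrillar collagen lay next and non-fibrillar collagen was lowest. The means were 9.47 ± 0.13, 9.07 ± 0.10 and 8.19 ± 0.12 (SD, n = 3 each). Fibrillar collagen was at 0.87 ± 0.078 (SE) against non-fibrillar collagen, 1.83-fold higher, and the fifth highest of all genes in that comparison. The same-numbered arrays differed by 0.90, 0.75 and 0.98. Against Matrigel, fibrillar collagen was at -0.41 ± 0.084 (1.33-fold lower, rank 199 from the lowest) and non-fibrillar collagen at -1.28 ± 0.084 (2.43-fold lower, rank 16 from the lowest). The difference between fibrillar collagen and Matrigel was the smallest of the 3, and leaving out 1 array moved it between -0.46 and -0.33. Selenop and Dio2 thus had the same highest group, but Dio2 separated the forms of collagen while the Selenop values of the collagens overlapped.

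**Figure D1:**
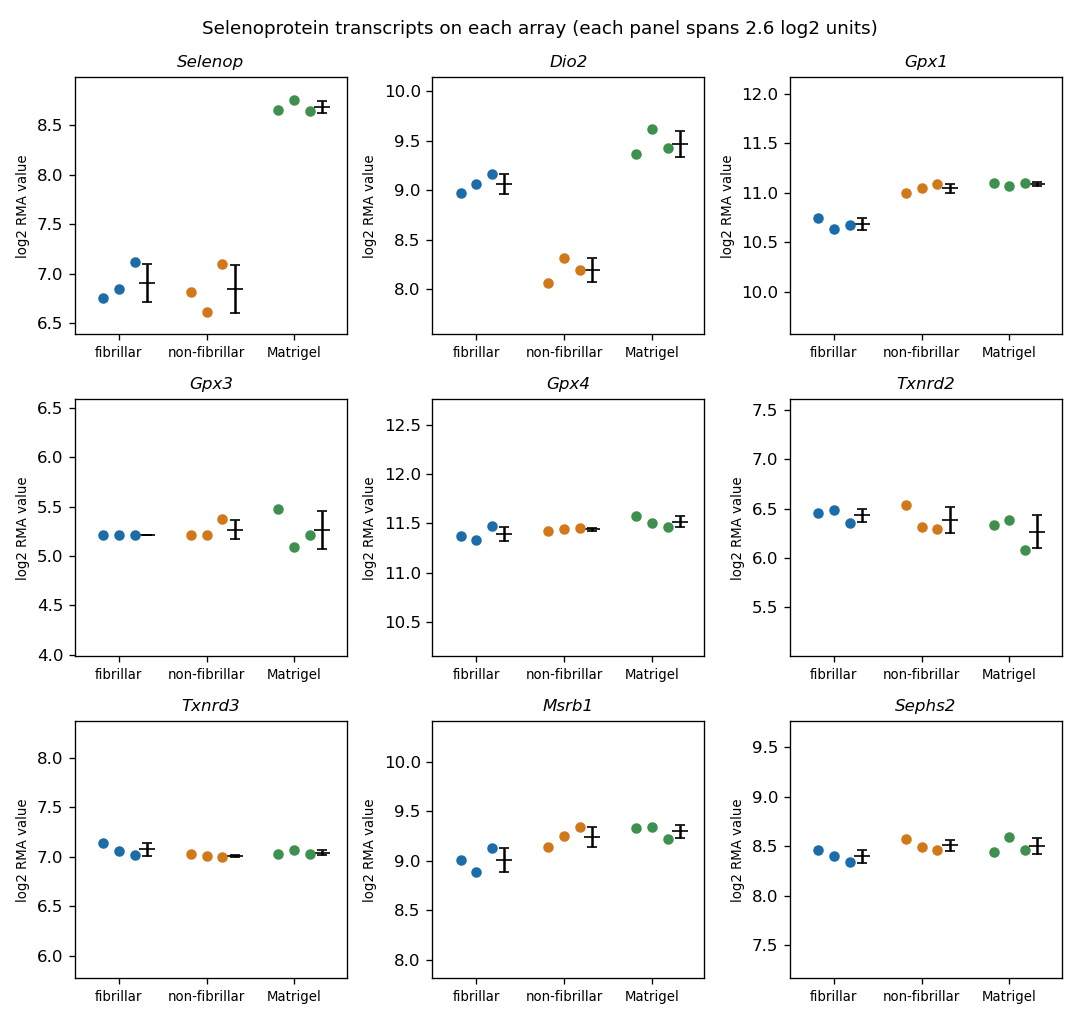
Log2 RMA values of the 9 selenoprotein genes (vertical axes, each spanning 2.6 log2 units) on the 3 arrays of each matrix, with points for arrays and black marks for the mean and SD. Selenop is high on the Matrigel arrays alone (8.65 to 8.76), Dio2 forms 3 separate levels, and Gpx1 is lower in fibrillar collagen (10.64 to 10.75) than in both other groups.

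The glutathione peroxidases use glutathione to reduce peroxides, and the 3 members of this family did not share a pattern. Gpx1, the abundant cytosolic enzyme, was at 10.75, 10.64 and 10.67 in fibrillar collagen, at 10.995, 11.05 and 11.09 in non-fibrillar collagen, and at 11.10, 11.07 and 11.10 in Matrigel. The fibrillar arrays lay below all 6 others, and the remaining groups overlapped. The means were 10.68 ± 0.057, 11.04 ± 0.046 and 11.09 ± 0.020 (SD, n = 3 each). Fibrillar collagen was at -0.36 ± 0.045 (SE) against non-fibrillar collagen (1.28-fold lower) and at -0.40 ± 0.044 against Matrigel (1.32-fold lower). Non-fibrillar collagen and Matrigel differed by -0.045 ± 0.044, and by -0.081 to -0.0086 under the alternatives other than leaving out 1 array. Gpx1 in fibrillar collagen was therefore placed opposite to Dio2 relative to non-fibrillar collagen, and with the same sign as Dio2 relative to Matrigel.

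Gpx4 reduces peroxidized phospholipids in membranes and protects cells from ferroptosis, a death driven by lipid peroxidation. It was at 11.37, 11.33 and 11.48 in fibrillar collagen, at 11.42, 11.45 and 11.45 in non-fibrillar collagen, and at 11.58, 11.50 and 11.47 in Matrigel. The fibrillar arrays overlapped both other groups, while the non-fibrillar arrays lay just below Matrigel. Its differences were small, at -0.047 ± 0.046 for fibrillar against non-fibrillar collagen, -0.12 ± 0.049 for fibrillar collagen against Matrigel and -0.075 ± 0.049 for non-fibrillar collagen against Matrigel. That between the collagens turned to 0.015 after quantile normalization again. A further probe set of Gpx4 read 11.26, 11.20 and 11.35 in fibrillar collagen, 11.31, 11.31 and 11.33 in non-fibrillar collagen and 11.45, 11.40 and 11.36 in Matrigel, so it too had its highest mean in Matrigel.

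Gpx3, the secreted plasma form, gave a dim signal with little information. It had the same value, 5.21, on 6 of the 9 arrays, including all 3 fibrillar arrays, with 5.38 in 1 non-fibrillar array and 5.48 and 5.10 in 2 Matrigel arrays. By that rough guide 31.8% of genes had a lower mean, and its differences lay from -0.054 to 0.0063 log2 units with SE from 0.052 to 0.087. The deposited values thus showed no order of the groups for Gpx3, and a spread of 0 within the fibrillar group is not a measure of precision.

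The thioredoxin reductases return thioredoxin to its reduced form with electrons from NADPH, and the group means of both members lay close together. Txnrd2, the mitochondrial enzyme, was at 6.45, 6.48 and 6.36 in fibrillar collagen, at 6.53, 6.31 and 6.29 in non-fibrillar collagen, and at 6.34, 6.39 and 6.08 in Matrigel. All groups overlapped, and its differences from Matrigel were 0.16 ± 0.089 (SE) for fibrillar and 0.11 ± 0.089 for non-fibrillar collagen. Txnrd3, which also reduces glutathione and is best known from the testis, had the narrowest range of the members, from 6.998 to 7.142 over the 9 arrays. The same Txnrd3 value, 7.02, stood on 3 of the 9 arrays, in the non-fibrillar and Matrigel groups, so a narrow spread is not a measure of precision. Its group means lay within 0.065 log2 units of each other, and the small difference of -0.030 between non-fibrillar collagen and Matrigel turned positive after quantile normalization again (0.0032) or centring on array medians (0.0064). Txnrd1, the cytosolic enzyme and not a member, also had overlapping groups, with differences of 0.011 ± 0.085, 0.047 ± 0.077 and 0.037 ± 0.077 and limma adjusted p of 0.955, 0.794 and 0.837 for fibrillar against non-fibrillar collagen, fibrillar collagen against Matrigel and non-fibrillar collagen against Matrigel.

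Msrb1 reduces methionine-R-sulfoxide in proteins, and its group means stood in the same order as those of Gpx1. It was at 9.01, 8.88 and 9.12 in fibrillar collagen, at 9.14, 9.25 and 9.34 in non-fibrillar collagen, and at 9.33, 9.34 and 9.22 in Matrigel. The fibrillar arrays lay below all others, though the highest of them came close to the lowest non-fibrillar array, and the other groups overlapped. The differences were -0.24 ± 0.078 (SE) for fibrillar against non-fibrillar collagen, -0.29 ± 0.072 for fibrillar collagen against Matrigel and -0.055 ± 0.072 for the non-fibrillar form against Matrigel. Sephs2 makes the selenium donor for selenocysteine and is itself a selenoprotein. It was at 8.47, 8.40 and 8.34 in fibrillar collagen, at 8.57, 8.49 and 8.47 in non-fibrillar collagen, and at 8.45, 8.59 and 8.47 in Matrigel. All of its groups overlapped, and fibrillar collagen was at -0.11 ± 0.049 against non-fibrillar collagen and at -0.10 ± 0.055 against Matrigel.

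**Figure D2:**
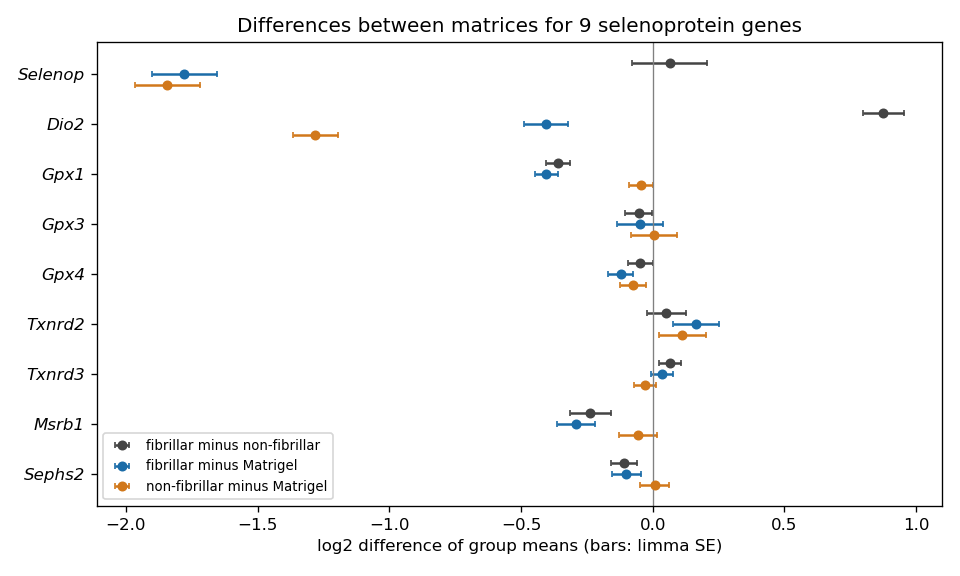
Log2 differences of group means (horizontal axis, bars are limma's SE) for the 9 selenoprotein genes in the 3 comparisons. Selenop lies near -1.8 in both comparisons with Matrigel, Dio2 is apart from 0 in all 3 comparisons, and Gpx3, Gpx4, Txnrd2, Txnrd3 and Sephs2 lie between -0.12 and 0.16.

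Counted over the members, the groups did not overlap for 3 of 9 genes between the collagens (Dio2 higher in fibrillar collagen, Gpx1 and Msrb1 lower), where 25.2% of all genes did not overlap, 11.6% higher and 13.6% lower. Between fibrillar collagen and Matrigel they did not overlap for 4 of 9 (Selenop, Dio2, Gpx1 and Msrb1, each lower in fibrillar collagen, against 20.4% of all genes, 9.05% higher and 11.3% lower). Between non-fibrillar collagen and Matrigel this held for 3 of 9 (Selenop, Dio2 and Gpx4, each lower in non-fibrillar collagen, against 28.4% of all genes, 14.4% higher and 14% lower). Because members were chosen on these comparisons, nothing is read from these counts. The median difference of the members was -0.047, -0.12 and -0.045 in the 3 comparisons, beside 0.0080, 0.0028 and 0.00061 over all genes. Selenop and Dio2 were included for their large differences, so their distance from these medians follows from the choice. A difference of 0.5 or more in size was found for 0.712%, 0.772% and 2.06% of all genes.

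**Figure D3:**
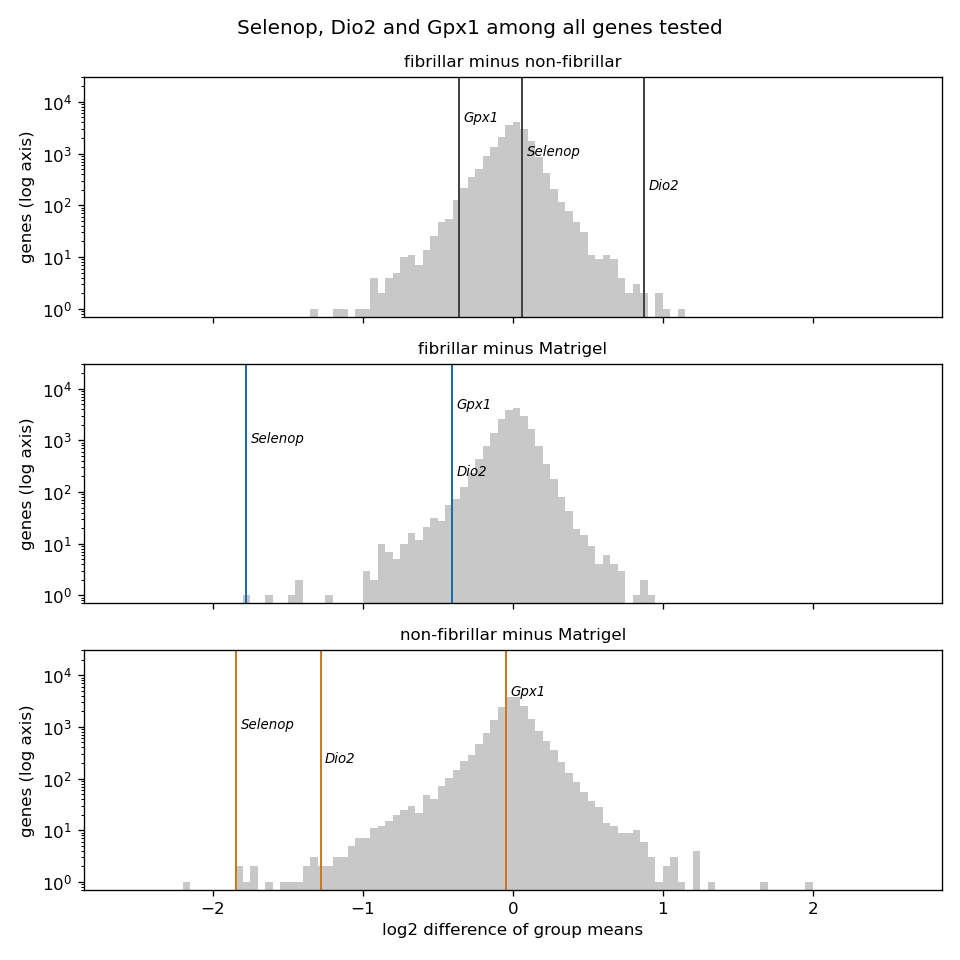
Numbers of genes (vertical log axis) by log2 difference of group means (horizontal axis, bins of 0.05) over 19938 genes, 1 panel for each comparison, with lines at Selenop, Dio2 and Gpx1. Selenop stands at the lower end in both comparisons with Matrigel and near the middle (0.064) between the collagens.

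The other 15 mouse selenoprotein genes were all measured and were tested with limma over all genes (Benjamini-Hochberg adjustment, threshold 0.05). Between the collagens 1 was higher in fibrillar collagen, 3 were lower and 11 did not pass, so 26.7% were called where 6.4% of all genes were, 2.71% higher and 3.69% lower. At an unadjusted p under 0.05 by limma there were 9 of the 15, beside 21.6% of all genes. Against Matrigel 1 was lower and 14 did not pass in fibrillar collagen (3.82% of all genes called, 1.45% higher and 2.37% lower), and in non-fibrillar collagen 2 were higher, 2 were lower and 11 did not pass (13.8% of all genes called, 6.75% higher and 7.07% lower). Unadjusted, these were 4 and 6 of the 15, beside 18.1% and 25.5% of all genes. The median difference was -0.0021, -0.021 and 0.015 in the 3 comparisons, near the medians over all genes. The calls between the collagens were fragile. Without fibrillar replicate 2 or 3 or non-fibrillar replicate 1 or 2 none of the 4 passed (limma adjusted p from 0.057 to 0.140), without fibrillar replicate 1 Selenon and Selenot did not pass, and without non-fibrillar replicate 3 Selenom was the only one that did.

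Selenom, a thioredoxin-like protein of the endoplasmic reticulum, was the one gene of the 15 called in all 3 comparisons. It was at 8.68, 8.63 and 8.64 in fibrillar collagen, at 8.92, 8.90 and 9.02 in non-fibrillar collagen, and at 9.32, 9.17 and 9.17 in Matrigel. The groups did not overlap. Fibrillar collagen was at -0.57 ± 0.052 (SE) against Matrigel (1.49-fold lower, limma adjusted p = 5.5e-04) and at -0.30 ± 0.044 against non-fibrillar collagen (1.23-fold lower, limma adjusted p = 0.017). Non-fibrillar collagen was at -0.27 ± 0.052 against Matrigel (limma adjusted p = 0.0073). Its order, fibrillar below non-fibrillar below Matrigel, was that of the means of Gpx1, Gpx4 and Msrb1 and not that of Dio2. Non-fibrillar and Matrigel arrays overlapped for Gpx1 and Msrb1, and the collagens overlapped for Gpx4.

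Selenos, which helps to pull misfolded proteins out of the endoplasmic reticulum, rose in non-fibrillar collagen against both other groups. It was at 8.86, 8.84 and 8.75 there, at 8.56, 8.48 and 8.32 in fibrillar collagen and at 8.525, 8.496 and 8.480 in Matrigel. Fibrillar collagen was at -0.36 ± 0.070 (SE) against non-fibrillar collagen (limma adjusted p = 0.034), and non-fibrillar collagen was at 0.32 ± 0.062 against Matrigel (limma adjusted p = 0.0084). Selenon, a protein of the endoplasmic reticulum known from muscle disease, fell in non-fibrillar collagen, by 0.26 ± 0.049 against Matrigel (limma adjusted p = 0.0064). Fibrillar collagen was at 0.21 ± 0.039 against non-fibrillar collagen for Selenon (limma adjusted p = 0.033, and 0.076 after centring on array medians). Selenot, a thioredoxin-like protein of the same compartment, was lower in the fibrillar than the non-fibrillar form (-0.20 ± 0.043, limma adjusted p = 0.0496, and 0.13 after quantile normalization again). Selenoh, a nucleolar protein, was higher in non-fibrillar collagen than in Matrigel (0.22 ± 0.047, limma adjusted p = 0.013, and 0.052 without non-fibrillar replicate 2). Dio1 and Dio3, the other deiodinases, named here after their values were seen, did not pass in any comparison. They differed by -0.0053 to 0.13 log2 units, with all groups overlapping. Both signals were dim, at 3.90 to 4.24 for Dio1 and 4.51 to 4.88 for Dio3 over the arrays, so the lack of a call carries little information.

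**Figure D4:**
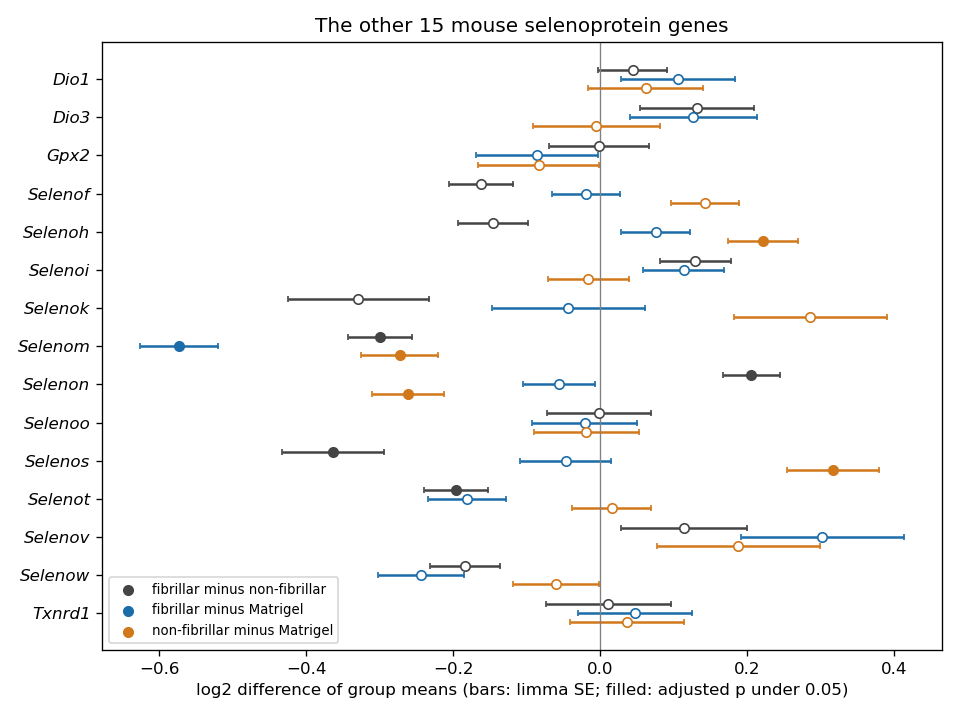
Log2 differences of group means (horizontal axis, bars are limma's SE) for the other 15 mouse selenoprotein genes in the 3 comparisons, filled where the limma adjusted p was under 0.05. Selenom is below 0 in all 3 comparisons, and Selenos and Selenon lie on opposite sides of 0 in the 2 comparisons that involve non-fibrillar collagen.

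Genes for selenium uptake and for making and inserting selenocysteine gave few calls. Of 15 measured genes, 1 was higher and 0 lower between the collagens (6.67%, beside 6.4% of all genes), 0 were called for fibrillar collagen against Matrigel (beside 3.82%), and 1 was lower for non-fibrillar collagen against Matrigel (6.67%, beside 13.8%). At an unadjusted p under 0.05 by limma there were 5, 3 and 5 of the 15, beside 21.6%, 18.1% and 25.5% of all genes. Their median differences were -0.023, -0.0070 and 0.040. Lrp1, a large endocytic receptor related to the Selenop receptors, was at 11.90, 11.91 and 11.89 in fibrillar collagen and at 11.48, 11.48 and 11.44 in non-fibrillar collagen. It was 1.35-fold higher in fibrillar collagen (0.43 ± 0.033 SE, limma adjusted p = 0.0046), and no left-out array ended that call. Sepsecs, the enzyme that makes selenocysteine on its transfer RNA, was lower in non-fibrillar collagen than in Matrigel (-0.27 ± 0.040, limma adjusted p = 0.0019). The receptor Lrp8 and the insertion factor Secisbp2, both named here outside the rule for named genes after their values were seen, did not pass. Lrp8 was at 0.20 ± 0.048 between the collagens (limma adjusted p = 0.064), and Secisbp2 differed by at most 0.0070 log2 units.

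Genes of thyroid hormone handling and response were set beside Dio2. Of 15 measured, 1 was higher in fibrillar than in non-fibrillar collagen (6.67%, beside 6.4% of all genes), 0 were called between fibrillar collagen and Matrigel (beside 3.82%), and 1 was higher and 3 were lower in non-fibrillar collagen than in Matrigel (26.7%, beside 13.8%). At an unadjusted p under 0.05 by limma there were 5, 3 and 8 of the 15, beside 21.6%, 18.1% and 25.5% of all genes. The median differences were 0.087, 0.015 and -0.048. Hr, a corepressor that thyroid hormone induces in brain, was 1.29-fold higher with fibrillar than non-fibrillar collagen (0.36 ± 0.053 SE, limma adjusted p = 0.018). That call was lost without any 1 array other than non-fibrillar replicate 2 (limma adjusted p up to 0.081). Hr was also 1.36-fold lower in non-fibrillar collagen than in Matrigel (-0.44 ± 0.051, limma adjusted p = 4.7e-04). In that comparison the receptors Rxra (-0.34 ± 0.047) and Thrb (-0.25 ± 0.044) were lower, and Wsb1, part of the ligase that marks the Dio2 protein for degradation, was higher (0.28 ± 0.069), with limma adjusted p of 0.0014, 0.0043 and 0.024. The Wsb1 call was lost without non-fibrillar replicate 1 or 3 or Matrigel replicate 2 or 3 (limma adjusted p up to 0.095).

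The genes with profiles nearest to those of Selenop and Dio2 were found by the root mean square difference over the 9 arrays, after the mean of each gene was subtracted. For Selenop these were Parm1, a mucin-like membrane protein (0.23 log2 units), the aspartyl protease Bace2 (0.26) and the plexin domain protein Plxdc1 (0.29), where the median gene was at 0.87. All were higher in Matrigel than in both collagens, but each had a higher mean in fibrillar than in non-fibrillar collagen, by 0.39, 0.30 and 0.55, where Selenop differed by 0.064. For Dio2 the nearest were the transcriptional coactivator Ppargc1a (0.11), the BMP pathway factor Smad9 (0.11) and the lysosomal glycoprotein Cd68 (0.11), where the median gene was at 0.55. Ppargc1a had group means of 7.65 in Matrigel, 7.20 in fibrillar and 6.41 in non-fibrillar collagen, so its differences of 0.79, -0.45 and -1.24 were close to those of Dio2. These likenesses rest mainly on the differences between the 3 groups and are a description with no test.

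**Figure D5:**
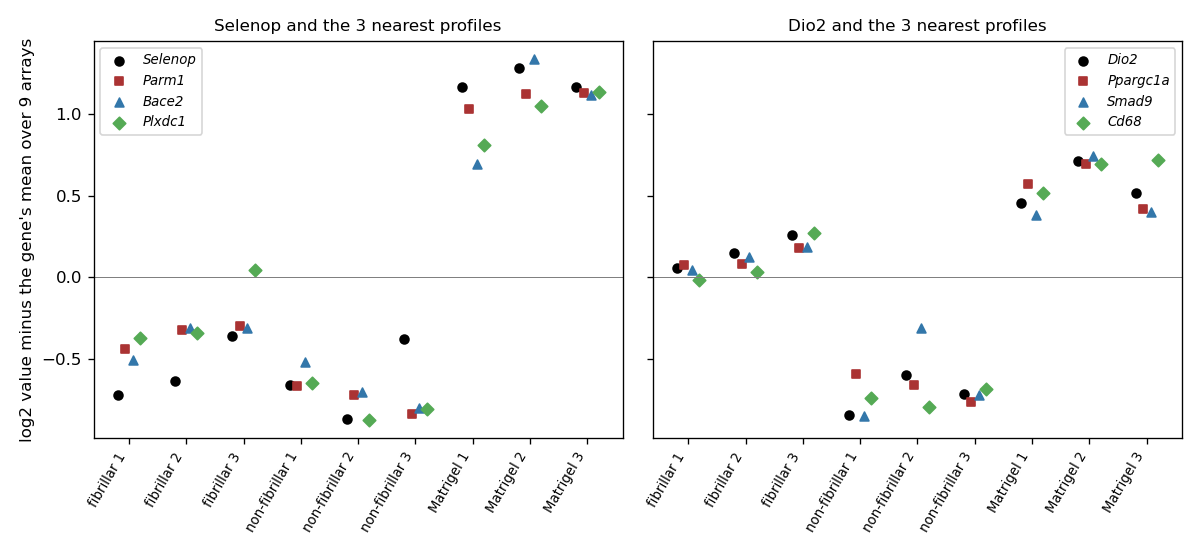
Log2 values minus the mean of each gene (vertical axis) on the 9 arrays for Selenop (left) and Dio2 (right), each with the 3 genes of the smallest root mean square difference. The Matrigel arrays of Selenop lie at 1.17 to 1.28, and Dio2 and its nearest profiles form 3 levels.

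Markers of the labelled cell type and of other cells were read beside these results. Of 10 mammary epithelial markers, the keratins Krt8, Krt18 and Krt14 had means above those of 98.2% to 99.9% of genes, while 5 markers, Epcam, Krt5, Krt19, Cldn3 and Cldn4, lay below the median gene. The mean of the list over arrays was 8.30 to 8.33 in fibrillar collagen, 8.29 to 8.32 in non-fibrillar collagen and 8.26 to 8.28 in Matrigel. None of the 10 was called between the collagens by limma, beside 6.4% of all genes. With limma 2 had an unadjusted p under 0.05 there, where 21.6% of all genes did. For fibrillar and non-fibrillar collagen against Matrigel 2 and 3 were called (20% and 30%, beside 3.82% and 13.8% of all genes). Krt18 was higher than in Matrigel (0.23 ± 0.040 SE in fibrillar and 0.28 ± 0.040 in non-fibrillar collagen, limma adjusted p = 0.014 and 0.0015), the former call being lost without Matrigel replicate 2 (limma adjusted p = 0.059). Krt14 was lower (-0.17 ± 0.039 and -0.30 ± 0.039, limma adjusted p = 0.041 and 9.8e-04), the former call being lost without any 1 array other than Matrigel replicate 2 and after quantile normalization again or centring on medians (limma adjusted p up to 0.111). Epcam was higher in non-fibrillar collagen than in Matrigel (0.28 ± 0.051, limma adjusted p = 0.0058). Among markers of adipocytes, cells that also express Dio2 and Selenop, Fabp4 and Lpl were lower in both collagens than in Matrigel. Of the 7 measured, 5 had negative and 2 positive differences for fibrillar collagen against Matrigel (Adipoq 0.029, Plin1 0.068). For non-fibrillar collagen against Matrigel, 6 were negative and 1 was positive (Adipoq 0.049). Between the collagens 5 were positive and 2 negative, with Lpl at 0.37 and Pparg at 0.29 (the latter not called). Selenop was at 0.064 and Dio2 at 0.87 in that comparison. Fabp4 was at -0.81 ± 0.083 (SE) in fibrillar and -1.02 ± 0.083 in non-fibrillar collagen against Matrigel, and Lpl at -0.36 ± 0.054 and -0.73 ± 0.054, with limma adjusted p of 9.0e-04, 7.0e-05, 0.0067 and 3.5e-05. Pparg was lower in non-fibrillar collagen than in Matrigel (-0.51 ± 0.069, limma adjusted p = 0.0012). Of 7 measured adipocyte markers 1 was called between the collagens, 2 for fibrillar collagen against Matrigel and 3 for the non-fibrillar form. These were 14.3%, 28.6% and 42.9% of the list, beside 6.4%, 3.82% and 13.8% of all genes. The mean of this list over arrays ran from 6.65 to 6.71 in Matrigel, 6.43 to 6.54 in fibrillar and 6.31 to 6.35 in non-fibrillar collagen, and 5 of the 7 lay below the median gene, Fabp4 among them. Among all genes 13.2% had a lower mean than Adipoq, a defining marker, which does not measure how many such cells were present, and the Lpl call between the collagens was lost without any 1 array other than non-fibrillar replicate 3 (limma adjusted p up to 0.081). The part of these markers in the Selenop and Dio2 differences was not tested.

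Markers of hepatocytes, the main source of Selenop in the body, were not called in any comparison (0 of 8 by limma, with 1, 0 and 0 at an unadjusted p under 0.05 in the 3 comparisons). All 8 lay below the median gene, and the list mean was 4.58 to 4.65 in Matrigel, 4.55 to 4.62 in fibrillar and 4.61 to 4.62 in non-fibrillar collagen. Over all genes, 6.4%, 3.82% and 13.8% were called in the 3 comparisons. An unadjusted p under 0.05 by limma was found for 21.6%, 18.1% and 25.5% of all genes. Of 11 macrophage markers, Cd68 and Cd14 were called, in opposite directions between the collagens, and the other 9 lay below the median gene. Cd68 was called in all 3 comparisons, at 0.83 ± 0.081 between the collagens and at -0.55 ± 0.081 and -1.38 ± 0.081 for fibrillar and non-fibrillar collagen against Matrigel (limma adjusted p = 0.0067, 0.0068 and 1.1e-05), and no alternative ended these calls. Its part in the Dio2 differences was not tested. Cd14 was at -0.37 ± 0.079 between the collagens and at 0.28 ± 0.073 for the non-fibrillar form against Matrigel (limma adjusted p = 0.047 and 0.033). The Cd14 calls were lost without any 1 collagen array between the collagens and without non-fibrillar replicate 2 or 3 or Matrigel replicate 1 or 2 against Matrigel (limma adjusted p up to 0.133). The macrophage list mean was 5.33 to 5.38 in Matrigel, 5.29 to 5.36 in fibrillar and 5.23 to 5.27 in non-fibrillar collagen. Of 9 fibroblast markers Pdgfra alone was called, at 0.67 ± 0.095 between the collagens and -1.01 ± 0.094 for non-fibrillar collagen against Matrigel (limma adjusted p = 0.015 and 1.5e-04). The first of these calls was lost without fibrillar replicate 2 or 3 or non-fibrillar replicate 1 or 2 (limma adjusted p up to 0.081). The fibroblast list mean was 6.31 to 6.42 in Matrigel, 6.29 to 6.38 in fibrillar and 6.17 to 6.26 in non-fibrillar collagen. Of 8 endothelial markers Kdr alone was called, at -0.47 ± 0.085 for non-fibrillar collagen against Matrigel (limma adjusted p = 0.0055). Between the collagens Kdr was at 0.37 ± 0.083 and did not pass (limma adjusted p = 0.052), but passed with the replicate number as a block (limma adjusted p = 0.026).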

How the data were processed

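The authors deposited log2 RMA values for each probe set, which the submitters' processing notes tie to Affymetrix Power Tools. The version, the settings and the run of each array were not given in the sources used here. It held 35512 probe sets with column medians from 5.98 to 6.05, and Pearson's r between arrays, across probe sets, was 0.992 to 0.996. Precision is limited by the number of arrays. The platform annotation gave 21789 probe sets 1 gene symbol. The probe set with the highest mean was used per gene, which left 19938 genes without a filter.

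Differences were fitted with limma 3.58.1, run under R 4.3.3 (functions lmFit and eBayes; two-sided; Benjamini-Hochberg over all genes), with 6 arrays for the collagens and all 9 for the comparisons with Matrigel. The fit was tested on simulated data with independent normal noise for each gene. These held no batch and no pairing of arrays, so that test does not bear on either. Members and lists were chosen with earlier results of these data known. Named genes were the members, Txnrd1, the called genes among the other selenoproteins, up to 4 called genes with the smallest p per other list and comparison, and the 3 nearest profiles of Selenop and Dio2. Exceptions are said to be so. Alternatives were a block for the replicate number, other arrays in the model, repeated quantile normalization, centring on medians, the mean of all probe sets, dim genes left out, a trended robust prior, array weights and each array left out. Of the list entries, Sars1, Prdx5, Prdx6 and Cfd were among those not analysed here.

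Deviations from the group means of same-numbered arrays correlated, across genes, at r = 0.221, 0.143 and 0.242 for the collagens. The numbers may pair those arrays, but no label says so. Arrays with different numbers were not correlated for reference, so these values cannot decide it. The main fits had no term for the replicate number, which entered only as the block among the alternatives, where some calls changed. For fibrillar collagen and Matrigel r was 0.253, 0.103 and 0.0968, and for non-fibrillar collagen and Matrigel 0.125, 0.0449 and 0.135, so not every pair passed 0.1.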

Additional observations from a re-analysis of the deposited data

How the results depend on the processing

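Selenop and Dio2 kept the sign of their differences from Matrigel, and Dio2 of that between the collagens, under all alternatives run. Leaving out 1 array gave 0.81 to 0.93 for Dio2 between the collagens and -1.34 to -1.21 for non-fibrillar collagen against Matrigel. The fit with the replicate number as a block kept each log2 difference (0.87 for Dio2 between the collagens), and raised the calls among the other 15 selenoproteins for fibrillar collagen against Matrigel from 1 to 2, with Selenot (limma adjusted p = 0.049). In that comparison the block also added Pdgfra and Pparg and lost Krt14 (limma adjusted p = 0.038, 0.049 and 0.054), and besides Kdr between the collagens it changed no other call of a named gene. That count was 3 with dim genes left out, 2 with a trended robust prior and 1 to 2 with 1 array left out. Between the collagens the count was 4, 7 with dim genes left out and 0 to 2 with 1 array left out. Over all genes, 1277, 762 and 2755 were called in the 3 comparisons. With dim genes left out, which also removes Gpx3 and Txnrd2, these were 2211, 1264 and 3428. With 1 array left out they were 150 to 569, 353 to 718 and 1814 to 2637, and fibrillar collagen against Matrigel gave 460 with 6 arrays in the fit. Higher calls made up 42.4%, 37.9% and 48.8%. This share was 51.1%, 50.5% and 52% after quantile normalization again and 30.3%, 44.2% and 62.8% after centring. The median of all genes shifted by no more than 0.036 log2 units.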

Other observations

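Among 21 measured partners of the selenoenzymes in the glutathione and thioredoxin systems, 3 were lower and 0 higher with fibrillar than non-fibrillar collagen, 5 were lower and 0 higher in fibrillar collagen than in Matrigel, and 4 were lower and 2 higher in non-fibrillar collagen than in Matrigel (limma, adjusted over all genes; 6.4%, 3.82% and 13.8% of all genes were called). Slc7a11, the cystine importer that feeds glutathione synthesis, was lower than in Matrigel in fibrillar (-0.36 ± 0.057 SE, limma adjusted p = 0.0095) and non-fibrillar collagen (-0.48 ± 0.057, limma adjusted p = 5.9e-04). Gclm, the modifier subunit of the first enzyme of that synthesis, was at -0.27 ± 0.044 and -0.24 ± 0.044 (limma adjusted p = 0.011 and 0.0051). Txnip, an inhibitor of thioredoxin, was at -0.54 ± 0.10 and -0.57 ± 0.10 (limma adjusted p = 0.018 and 0.0047). The Txnip call for fibrillar collagen was lost without fibrillar replicate 1 or Matrigel replicate 2 or 3 (limma adjusted p up to 0.066). These comparisons share the Matrigel arrays.

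Gss, glutathione synthetase, was lower in fibrillar collagen than in non-fibrillar collagen (-0.26 ± 0.047, limma adjusted p = 0.029) and Matrigel (-0.30 ± 0.054, limma adjusted p = 0.016), the side on which Gpx1 and Msrb1 lay. Gpx8, a peroxidase of the endoplasmic reticulum with cysteine in place of selenocysteine, was lower with fibrillar than non-fibrillar collagen (-0.35 ± 0.048, limma adjusted p = 0.015) and higher in non-fibrillar collagen than in Matrigel (0.30 ± 0.052, limma adjusted p = 0.0042). Prdx4, a peroxiredoxin of the same compartment, was at -0.29 ± 0.045 between the collagens (limma adjusted p = 0.019). Between the collagens Gss, Gpx8 and Prdx4 each kept the call in 1 of the 6 fits with 1 array left out, the one without fibrillar replicate 1 (limma adjusted p up to 0.102), and Gss lost that against Matrigel without fibrillar replicate 2 or 3 or Matrigel replicate 3 (limma adjusted p up to 0.060).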
